A study of Rattus norvegicus with 8 samples.

Results

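The genes described here are 10 that are widely used as readouts of the transcription factor NRF2 or that make and recycle glutathione: Nqo1, Hmox1, Gclc, Gclm, Gsr, Gss, Txnrd1, Srxn1, Slc7a11 and Fth1. They were chosen by name, as every non-control array probe whose RefSeq accession matched one of the 10 symbols, which gave 13 of the 30367 probes on the array and 10 of the 15159 symbols matched. The arrays measured RNA from lung endothelial cells of Sprague-Dawley rats aged 8 to 10 weeks, in 2 groups of 4 animals. The monocrotaline group had received 60 mg/kg of monocrotaline under the skin and the saline group had received saline, and lungs of both groups were taken 5 days later. Cells of both groups were released from whole lung with collagenase and pulled out on CD31 antibody beads, and RNA was extracted on the beads without culture. CD31 is also carried by platelets and by some leukocytes, so the selected cells need not all be endothelial. Only 10 ng of RNA per sample was amplified and labelled with Cy3.

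NRF2 is held in the cytoplasm and degraded through its partner KEAP1. When electrophiles or oxidants modify KEAP1, NRF2 accumulates, pairs with small MAF proteins and binds antioxidant response elements near its target genes, while BACH1 competes for the same elements. Glutathione is built from glutamate, cysteine and glycine, and cysteine usually limits its supply. Monocrotaline comes from Crotalaria plants, and liver enzymes oxidise it to a pyrrole that reacts with lung endothelium and that glutathione conjugates.

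The promoters of these genes are shown because the antioxidant response element is the sequence through which NRF2 acts. The RefSeq promoter table (build GRCr8, 250 bases before to 50 after each start site) held 8 promoters for 7 of the genes: Nqo1, Gclc, Gclm, Gss, Srxn1 and Slc7a11 with 1 each and Txnrd1 with 2. Both strands were searched for the core of the element, TGACNNNGC, and for the AP-1 site, TGANTCA. The core was found in 2 of the 8 promoters and in 12.1% of all 33469 promoters of the table. The AP-1 site was found in 1 of the 8 and in 7.33% of all promoters. A form of the core with G in place of C, TGAGNNNGC, was added after the Srxn1 promoter had been read, and was found in 1 of the 8 promoters and in 17.2% of all. The 3 promoters with a match follow 5′ to 3′ along the gene, from 250 bases before the start site to 10 bases after it, with matches in capitals.
Gclm: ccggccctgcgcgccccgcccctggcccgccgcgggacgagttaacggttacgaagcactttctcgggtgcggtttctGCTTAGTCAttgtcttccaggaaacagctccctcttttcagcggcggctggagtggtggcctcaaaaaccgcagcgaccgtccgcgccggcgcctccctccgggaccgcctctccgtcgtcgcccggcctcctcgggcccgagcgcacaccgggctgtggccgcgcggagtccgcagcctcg
Txnrd1: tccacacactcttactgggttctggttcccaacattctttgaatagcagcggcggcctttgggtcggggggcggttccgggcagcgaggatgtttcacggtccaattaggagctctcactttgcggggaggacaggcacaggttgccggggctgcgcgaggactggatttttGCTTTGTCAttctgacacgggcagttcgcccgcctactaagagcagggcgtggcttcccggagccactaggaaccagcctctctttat
Srxn1: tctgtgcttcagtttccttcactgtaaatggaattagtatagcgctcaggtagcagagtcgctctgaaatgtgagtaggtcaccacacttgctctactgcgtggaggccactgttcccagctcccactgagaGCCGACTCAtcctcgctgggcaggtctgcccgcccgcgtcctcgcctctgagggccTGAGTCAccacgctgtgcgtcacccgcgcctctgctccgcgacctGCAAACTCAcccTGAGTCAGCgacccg
The Gclm window is chr2:213031885-213032144 on the plus strand, and its match lies at -172 to -164 from the start site and reads TGACTAAGC on the opposite strand. The Txnrd1 window is chr7:22755895-22756154 on the minus strand, and its match lies at -78 to -70 and reads TGACAAAGC on the opposite strand. The Srxn1 window is chr3:161064562-161064821 on the plus strand. It holds the AP-1 letters TGAGTCA at -62 to -56 and again at -5 to 2, where the longer TGAGTCAGC at -5 to 4 is also a match to the G form of the core and overlaps the AP-1 match. Its other matches to the G form lie at -118 to -110 and -17 to -9. These matches describe letters, not bound sites, and no binding was measured.

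Signals are given as log2 of the processed spot signal minus the 75th percentile of the same array, so that 0 is the 75th percentile and 1 unit is a factor of 2. Values of one probe can be compared between arrays, but not with those of another probe. Of the 13 probes, 11 probes of 9 genes were well above background on at least 4 of the 8 arrays and were tested with limma among 21652 probes. No probe of the set passed an adjusted p of 0.05 after Benjamini-Hochberg correction over all probes. In the same test 308 probes passed, 294 of them higher and 14 lower, a share of 1.42%. At an unadjusted p under 0.05, 3 probes of the set were higher (Srxn1, Slc7a11 and 1 of the Txnrd1 probes) and none was lower, against 6.72% of all probes higher and 7.08% lower. Of these, Slc7a11 passed the filter mainly through the monocrotaline arrays, where it is high, so its place in the count and in the median is not support for a rise. All 4 monocrotaline arrays lay above all 4 saline arrays for 2 of the 11 probes, against 4.66% of all probes, and below them for none, against 3.87%. The fold change was positive for 7 probes and negative for 4, and its median was 0.147 on the log2 scale, against -0.02 over all probes.

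**Figure D1:**
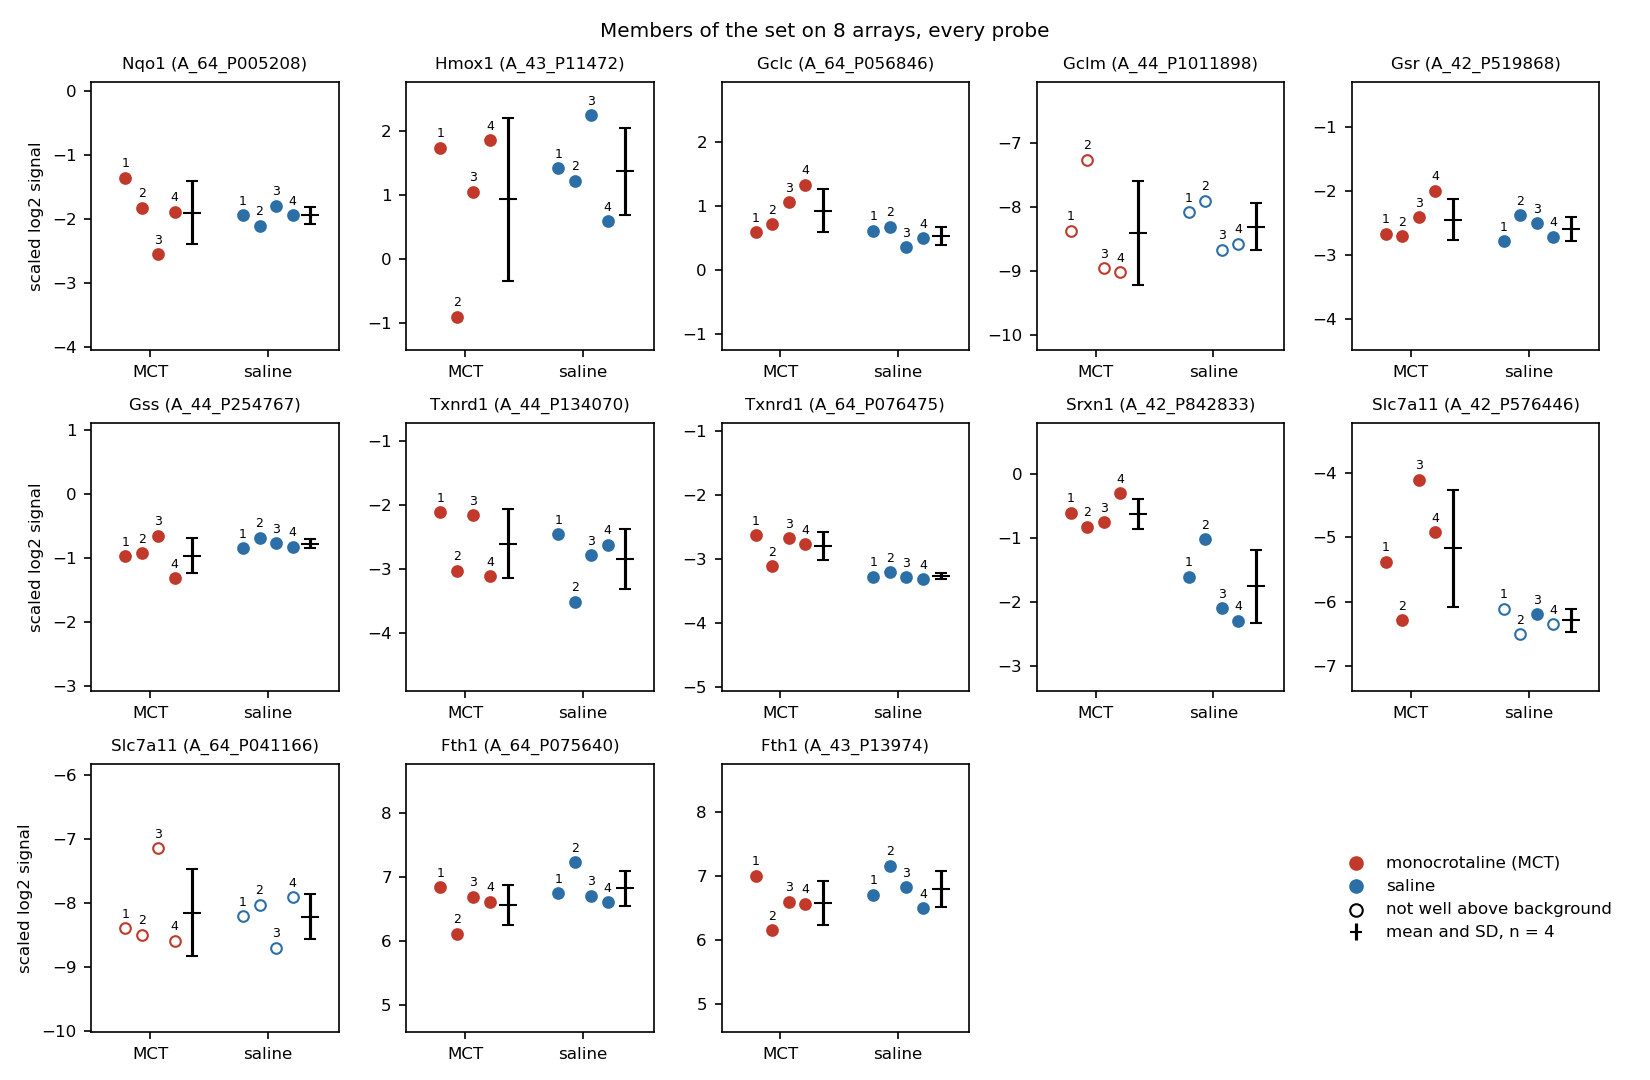
Scaled log2 signal of every probe of the 10 genes on the 4 monocrotaline and 4 saline arrays, 1 point per array numbered by replicate, with mean and SD beside each group (n = 4). Every panel spans the same number of log2 units. The groups are apart for Srxn1 and for the second Txnrd1 probe, Hmox1 has its lowest point on monocrotaline replicate 2, and Gclm stays at background.

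The arrays differed in ways that bear on single values. The share of spots above background ran from 70.8% to 77.7%, with the lowest on saline replicate 2, and all 8 arrays shared 1 slide. Monocrotaline arrays filled one row of that slide and saline arrays the other, so row and treatment cannot be told apart. Of the endothelial marker list, 11 of 14 genes were measured and all 11 had negative fold changes, with a median of -0.62 and 6 at an unadjusted p under 0.05, though none was called by limma. The mean of their signals relative to saline ranged from -0.84 to -0.09 on the monocrotaline arrays and from -0.28 to 0.37 on the saline arrays. Their part in the values of the set was not tested. Kdr, the VEGF receptor of endothelium and the brightest of the list, read 5.77 to 6.83 in monocrotaline rats and 6.29 to 6.74 in saline rats. The T and NK cell list (17 of 18 measured, 3 called, all higher) had means of 0.99 to 1.94 on monocrotaline arrays and -0.89 to 0.35 on saline arrays. The airway list (10 of 14, 1 called, higher) had means of 0.48 to 3.06 on monocrotaline arrays, highest on replicates 1 and 3, and -0.90 to 0.68 on saline arrays. Its fold changes were positive for 9 genes and negative for 1, Tppp3, the brightest of the list. Tppp3 read 5.39, 5.70, 4.70 and 4.68 on monocrotaline replicates 1 to 4 and 5.45 to 5.88 on saline arrays, so it was not highest on replicates 1 and 3. The DNA replication list (19 of 21, 16 called, all higher) had means of 1.22 to 1.95 on monocrotaline arrays and -0.12 to 0.18 on saline arrays. No gene was called in the lists for macrophages, neutrophils, B cells, platelets, erythroid cells, alveolar epithelium, fibroblasts or smooth muscle, but several leaned one way. All 10 measured fibroblast and mesothelial markers had positive fold changes (median 1.11), as did all 11 of smooth muscle and pericytes (0.545), all 7 of erythroid cells (0.883), all 5 of neutrophils (0.858) and all 5 of platelets (0.349). In these mixed cells, fewer cells of a type and less RNA per cell cannot be told apart.

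Glutathione synthesis begins with cystine, which SLC7A11 imports in exchange for glutamate. The Slc7a11 probe printed at 10 spots per array read -5.38, -6.29, -4.10 and -4.92 on monocrotaline replicates 1 to 4, and -6.11, -6.51, -6.20 and -6.35 on saline replicates 1 to 4. Monocrotaline replicates 1, 3 and 4 lay above every saline array, and replicate 2 lay within the saline range. The probe was above background on all 4 monocrotaline arrays but on 1 saline array, replicate 3, so the saline values are close to the limit of what could be seen. The log2 fold change was 1.12 ± 0.41 (SE, n = 4 each; 95% interval 0.192 to 2.05), and it was not called (limma, adjusted p = 0.284). With normexp background correction, the log2 fold change was 0.27 after 75th percentile scaling (limma, adjusted p = 0.62) and 0.44 after quantile normalization. Normexp was run with an offset of 50 added to every signal, and the linear signals of this probe ran from 11.41 to 99.95. At such signals the offset by itself draws a log2 difference towards 0, and its part in these lower values was not tested. The other Slc7a11 probe was below background on all 8 arrays, with means of -8.16 in monocrotaline rats and -8.22 in saline rats, and was not tested.

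Glutamate-cysteine ligase joins glutamate to cysteine and sets the pace of the pathway. It has a catalytic subunit, Gclc, and a modifier subunit, Gclm, which lowers the amount of glutamate that the enzyme needs. Gclc read 0.60, 0.72, 1.07 and 1.34 on monocrotaline arrays and 0.62, 0.68, 0.36 and 0.51 on saline arrays. Monocrotaline replicates 2, 3 and 4 lay above all saline arrays, replicate 2 only just, and replicate 1 lay within the saline range. The log2 fold change of Gclc was 0.39 ± 0.18 (SE; 95% interval -0.0286 to 0.808), which was not called (limma, adjusted p = 0.389). The interval leaves out a 2-fold rise and reaches 0, and without monocrotaline replicate 4 the value was 0.253.

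Gclm, one of the 2 genes with the element's core in the promoter window, was not well above background on any of the 8 arrays. Its probe read -8.37, -7.26, -8.96 and -9.02 on monocrotaline arrays and -8.08, -7.90, -8.67 and -8.58 on saline arrays. The lowest signals that counted as well above background were -7.60 to -6.80 on monocrotaline arrays and -7.24 to -6.41 on saline arrays. On monocrotaline replicate 2 that limit was -7.50, below the Gclm reading of -7.26. The 2 Gclm spots on that array disagreed (SD 1.73), and the reading was not flagged as well above background. These readings set no direction for Gclm, which was left out of the test.

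Gss, the synthetase that adds glycine to complete glutathione, read -0.97, -0.93, -0.65 and -1.32 on monocrotaline arrays and -0.84, -0.68, -0.77 and -0.82 on saline arrays. The groups overlapped, and the monocrotaline arrays were spread more widely (SD 0.274) than the saline arrays (SD 0.0721). Its log2 fold change was -0.19 ± 0.15 (SE; 95% interval -0.539 to 0.167; limma, adjusted p = 0.634), and it was -0.069 without monocrotaline replicate 4. Gsr, the reductase that returns oxidised glutathione to its reduced form with NADPH, read -2.66, -2.71, -2.41 and -1.99 on monocrotaline arrays and -2.78, -2.38, -2.50 and -2.71 on saline arrays. The highest Gsr value was on monocrotaline replicate 4, and the other 3 monocrotaline arrays lay within the saline range. Its log2 fold change was 0.15 ± 0.19 (SE; 95% interval -0.279 to 0.574; limma, adjusted p = 0.772), and without monocrotaline replicate 4 it was -0.003.

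The thioredoxin arm held both probes whose groups did not overlap. Sulfiredoxin, encoded by Srxn1, repairs peroxiredoxins that have been over-oxidised by peroxide. Srxn1 read -0.60, -0.82, -0.75 and -0.29 on monocrotaline arrays and -1.60, -1.02, -2.09 and -2.29 on saline arrays. Every monocrotaline array was above every saline array, with a gap of 0.199 between the nearest arrays, monocrotaline replicate 2 and saline replicate 2. Within the 4 slide columns, monocrotaline minus saline was 1.00, 0.20, 1.34 and 2.00, in the order of the replicates. These had to be positive because the groups do not overlap, so their signs add no support. The log2 fold change was 1.14 ± 0.28 (SE, n = 4 each; 95% interval 0.502 to 1.77), a factor of 2.2 (1.42 to 3.41), and the probe was not called (limma, adjusted p = 0.112). Without saline replicate 2, the log2 fold change was 1.38 and the probe was called (limma, adjusted p = 0.0493). That array had the fewest spots above background, but it was also the saline array nearest the monocrotaline values of Srxn1. Leaving it out therefore widened the difference. The fit without it called 120 of all probes, against 308 with all arrays. Over the 21 alternatives run, the Srxn1 log2 fold change stayed between 0.955 and 1.379 and the adjusted p between 0.0493 and 0.375. The DNA replication and T and NK cell lists were separated between the groups in the same direction, and their part in the Srxn1 difference was not tested.

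Txnrd1 encodes the cytosolic thioredoxin reductase, a selenoprotein that passes electrons from NADPH to thioredoxin, and it was read by 2 probes of the same transcript accession that did not move alike. Probe A_64_P076475 read -2.62, -3.11, -2.67 and -2.77 on monocrotaline arrays and -3.27, -3.20, -3.28 and -3.31 on saline arrays. All monocrotaline values were above all saline values, by 0.0955 at the nearest. Its log2 fold change was 0.48 ± 0.14 (SE, n = 4 each; 95% interval 0.165 to 0.786), a factor of 1.39 (1.12 to 1.72), which was not called (limma, adjusted p = 0.17) and was 0.295 with normexp and 75th percentile scaling. The normexp offset of 50 also narrows a log2 difference at the linear signals of this probe, 113.4 to 322.8. Within the slide columns, monocrotaline minus saline was 0.65, 0.10, 0.61 and 0.54, in the order of the replicates. Here too the signs follow from the lack of overlap.

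Probe A_44_P134070 read -2.11, -3.03, -2.16 and -3.11 on monocrotaline arrays and -2.46, -3.51, -2.78 and -2.61 on saline arrays. Its groups overlapped, and its highest values were on monocrotaline replicates 1 and 3, the arrays with the highest airway marker means. Its log2 fold change was 0.24 ± 0.32 (SE; 95% interval -0.485 to 0.966; limma, adjusted p = 0.782) and was -0.23 with those 2 arrays left out. Leaving out the 2 highest values of the probe had to lower its fold change, so the fall says nothing about airway RNA. The part of airway RNA in this probe was not tested.

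**Figure D2:**
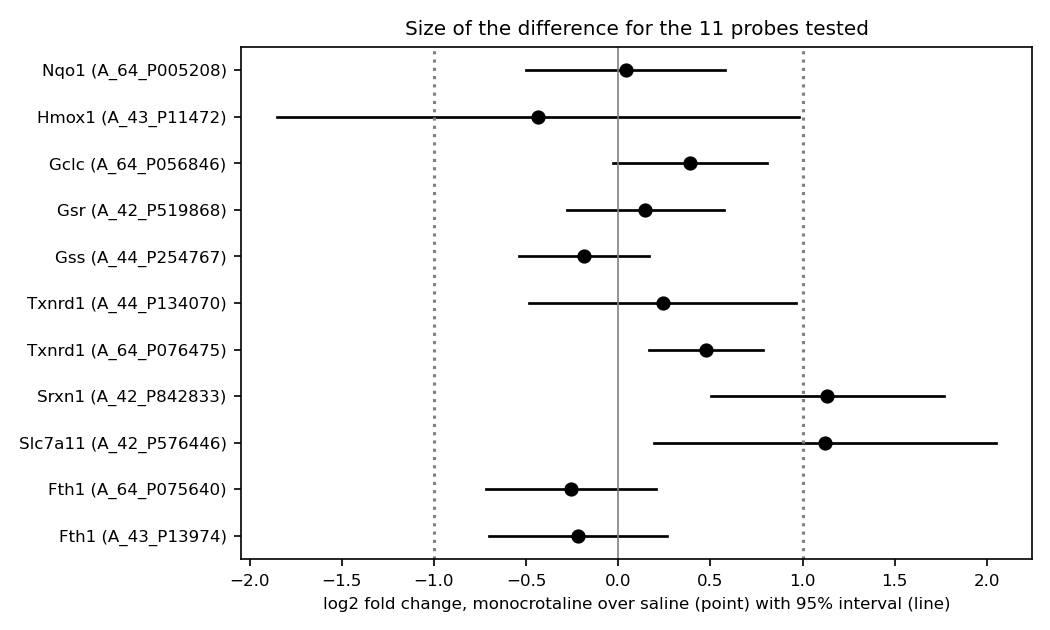
Log2 fold change of monocrotaline over saline for the 11 probes tested (points) with 95% intervals from limma (lines), n = 4 arrays a group. Dotted lines mark a 2-fold change either way. The intervals of Srxn1, Slc7a11 and 1 Txnrd1 probe lie above 0, those of Srxn1 and Slc7a11 reach past a 2-fold rise, and that of Hmox1 reaches past a 2-fold fall.

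Nqo1, the quinone reductase that is a widely used NRF2 readout, showed no difference in mean beyond its spread. It read -1.36, -1.82, -2.55 and -1.89 on monocrotaline arrays and -1.94, -2.11, -1.79 and -1.94 on saline arrays. The saline arrays lay close together (SD 0.129), and monocrotaline replicates 1 and 3 marked the highest and the lowest values of all 8 (SD 0.493). Its log2 fold change was 0.04 ± 0.24 (SE; 95% interval -0.5 to 0.58; limma, adjusted p = 0.961), which leaves out a 2-fold change in either direction. Its sign was not stable: it was -0.002 under quantile normalization and -0.001 under median scaling.

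Hmox1 encodes the inducible haem oxygenase, which splits haem into biliverdin, carbon monoxide and iron and is abundant in macrophages that clear red cells. It had the widest spread of the set. It read 1.74, -0.90, 1.06 and 1.86 on monocrotaline arrays and 1.42, 1.23, 2.25 and 0.59 on saline arrays. Replicate 2 of the monocrotaline group stood below every other array, while the other 3 lay within the saline range. The 10 spots of the probe differed by a mean SD of only 0.0487 within an array, so the spread between arrays is not one between spots. The log2 fold change was -0.43 ± 0.62 (SE; 95% interval -1.85 to 0.982; limma, adjusted p = 0.804), it was 0.18 without monocrotaline replicate 2, and it was -0.141 without saline replicate 3. A rise of 2-fold lies just outside the interval and a fall of 2-fold inside it.

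Macrophage markers were low on the same array. Of 13 measured monocyte and interstitial macrophage markers, 11 had their lowest value of the 8 arrays on monocrotaline replicate 2, as did 5 of 7 measured alveolar macrophage markers. The same held for 0 of 17 T and NK cell markers and 0 of 7 erythroid markers. The share over all genes is not given here. The alveolar macrophage list averaged -1.36 relative to saline on that array and up to 0.40 on the other monocrotaline arrays, against -0.36 to 0.15 on saline arrays. The monocyte list averaged -0.78 there and up to 0.96 on the other monocrotaline arrays, against -0.50 to 0.25 on saline arrays. Cd68, a lysosomal protein of macrophages, stood at -1.83 relative to the saline mean there, and Gpnmb at -2.67 (both picked after their values were seen). The alveolar list also holds Car4 and Fabp4, which lung capillaries express, and Marco was not above the filter. The part of macrophage RNA in the Hmox1 values was not tested.

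Fth1, the heavy chain of ferritin, which stores iron in a less reactive form, was read by 2 probes. Fth1 has processed copies in the genome, so its signal may not come from 1 locus. Probe A_64_P075640 read 6.84, 6.11, 6.69 and 6.61 on monocrotaline arrays and 6.74, 7.23, 6.71 and 6.61 on saline arrays. Probe A_43_P13974 read 7.00, 6.16, 6.60 and 6.57 on monocrotaline arrays and 6.71, 7.16, 6.83 and 6.50 on saline arrays. Both were lowest on monocrotaline replicate 2 and highest on saline replicate 2, and the groups overlapped on both. Before scaling, saline replicate 2 had the second lowest Fth1 signal of the 8 on both probes, 156000 and 148800. Its 75th percentile was 1042, against 1596 to 2196 on the other arrays. The part of the scaling in the high place of that array was not tested. The log2 fold changes were -0.26 ± 0.20 (SE; limma, adjusted p = 0.613) and -0.22 ± 0.21 (SE; limma, adjusted p = 0.694). Their 95% intervals, -0.719 to 0.204 and -0.7 to 0.266, leave out a 2-fold change either way. Without monocrotaline replicate 2 the values were -0.107 and -0.075, without saline replicate 2 they were -0.122 and -0.097, and under quantile normalization -0.156 and -0.127. Lyz2, the macrophage lysozyme, also had its lowest scaled value, 6.22, on monocrotaline replicate 2 and its highest, 7.53, on saline replicate 2. The low 75th percentile of saline replicate 2 enters this Lyz2 value as well, and its part was not tested.

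**Figure D3:**
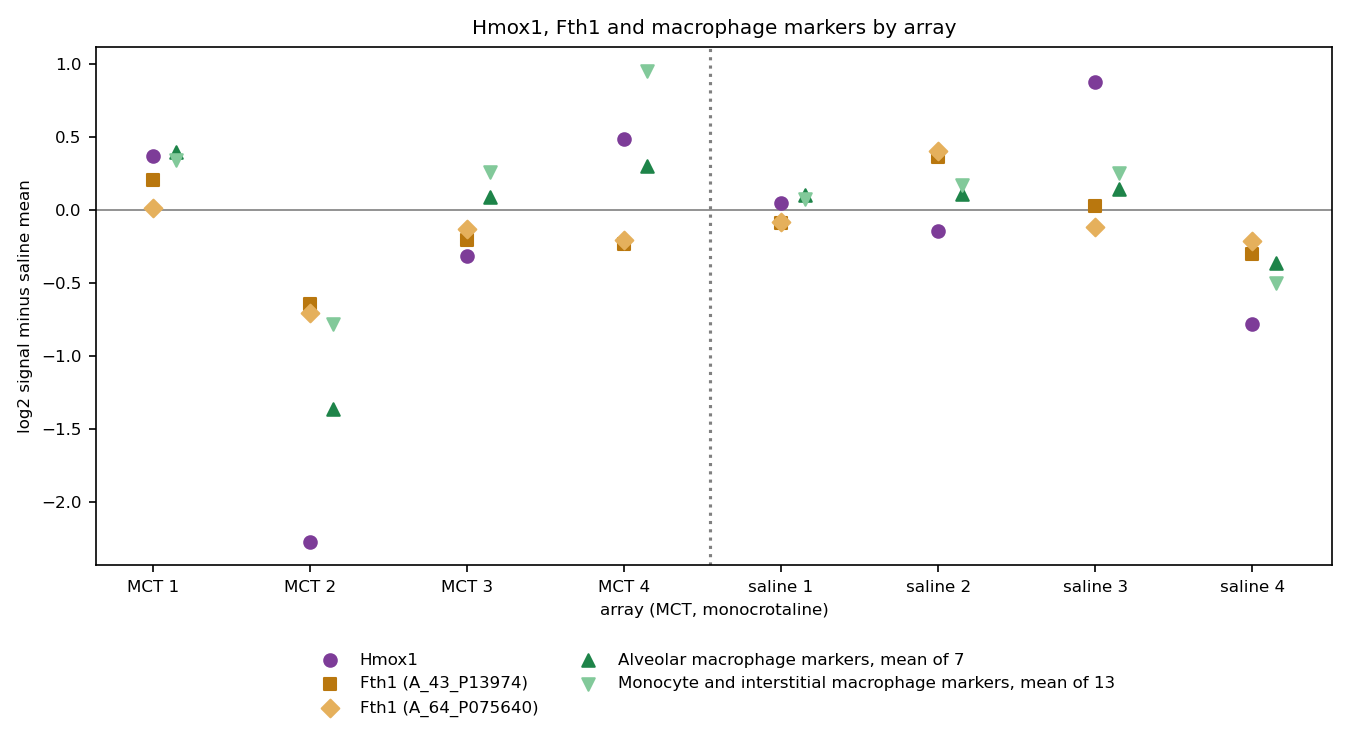
Log2 signal minus the saline mean on each array for Hmox1, both Fth1 probes and the means of 7 alveolar macrophage and 13 monocyte and interstitial macrophage markers, with monocrotaline arrays left of the dotted line. All 5 measures have their lowest value on monocrotaline replicate 2.

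Across the set, 8 of the 11 tested probes had intervals that leave out a 2-fold change in both directions, 9 leave out a 2-fold rise and 10 a 2-fold fall. The smallest adjusted p was 0.112 (Srxn1) and the largest 0.961 (Nqo1), both by limma.

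The regulators of NRF2 were measured on the same arrays, and all 12 genes of that list passed the filter. None was called, and 1 had an unadjusted p under 0.05, a lower one. Nfe2l2, the gene of NRF2 itself, had a log2 fold change of 0.18 ± 0.17 (SE; limma, adjusted p = 0.676), and Keap1 one of -0.15 ± 0.17 (SE; limma, adjusted p = 0.742). These are RNA levels, and NRF2 is mainly controlled through its protein. Mafg, a small MAF partner, read 0.52, 0.47, 0.44 and 0.59 on monocrotaline arrays and 0.92, 0.76, 0.94 and 0.87 on saline arrays. Every monocrotaline value of Mafg was below every saline value, with a log2 fold change of -0.36 ± 0.11 (SE; limma, adjusted p = 0.181). Bach1, the repressor, was at -0.35 ± 0.17 (SE; limma, adjusted p = 0.392). The median of the list was -0.08, against -0.02 over the 11443 genes with a symbol that were tested.

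In 9 lists of genes around the pathway, which include these regulators and leave out the 10 genes above, 120 of 131 genes were tested and none was called by limma. At an unadjusted p under 0.05, 9 were higher and 8 lower, and the median log2 fold change was 0.0048. The groups did not overlap for 3 genes that were higher (Ggt1, Gdf15 and Ugdh) and 5 that were lower (Mafg, Abcc5, Txnip, Sod1 and Fgf21), where Ugdh and Sod1 are named after their values were seen. Among all tested genes with a symbol, 5.13% were apart and higher and 4.42% apart and lower. The genes that move glutathione and its parts (15 of 16 tested) had 1 higher and 1 lower at that p and a median of -0.12. Ggt1, the gamma-glutamyl transferase that breaks glutathione down outside the cell, read -4.65, -5.72, -3.78 and -4.39 on monocrotaline arrays and -5.79, -6.02, -6.01 and -6.21 on saline arrays. The groups did not overlap, but monocrotaline replicate 2 lay close to saline replicate 1, and saline replicate 2 was not above background. The log2 fold change of Ggt1 was 1.37 ± 0.36 (SE; limma, adjusted p = 0.143), and without monocrotaline replicate 2 it was 1.73 and called (limma, adjusted p = 0.0221). That array held the lowest monocrotaline value of Ggt1, and the fit without it called 397 of all probes, against 308 with all arrays. Abcc5, an exporter, was at -0.34 ± 0.12 (SE; limma, adjusted p = 0.254), with every monocrotaline value below every saline value. Slc3a2, the heavy chain that pairs with SLC7A11 in the cystine carrier, was at -0.37 ± 0.19 (SE; limma, adjusted p = 0.428).

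The glutathione peroxidases and glutaredoxins (9 of 10 tested) had none past an unadjusted p of 0.05 and a median of 0.155. Gpx2, the epithelial peroxidase, read -0.11, 4.52, 1.04 and 3.50 on monocrotaline arrays and 4.19, 4.06, 3.81 and 4.39 on saline arrays. It was far below the saline range on monocrotaline replicates 1 and 3, the arrays with the highest airway marker means, just below it on replicate 4 and above it on replicate 2, with a log2 fold change of -1.88 ± 0.92 (SE). Gpx4, which reduces lipid peroxides, was at -0.22 ± 0.12 (SE). The glutathione transferases, which attach glutathione to electrophiles (18 of 20 tested), had 1 higher and 1 lower at that p and a median of 0.0732. Gsta3 was at 0.60 ± 0.25 and Gstt2 at -0.60 ± 0.25 on the log2 scale (SE).

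The thioredoxins, peroxiredoxins, superoxide dismutases and catalase (17 of 18 tested) had 2 higher and 1 lower and a median of -0.02. Prdx4, the peroxiredoxin of the endoplasmic reticulum, was at 0.51 ± 0.17 (SE) and Txnip, which binds and inhibits thioredoxin, at -0.62 ± 0.21 (SE). The Txnip groups did not overlap, with a highest monocrotaline value of 2.97 and a lowest saline value of 2.99. The enzymes that supply NADPH (8 of 9 tested) had 1 higher, Me1 at 0.79 ± 0.29 (SE), and 1 lower, Idh1 at -0.45 ± 0.19 (SE), with a median of 0.127. The quinone, carbonyl and epoxide reductases (14 of 15 tested) had 1 higher, Akr7a3 at 1.96 ± 0.71 (SE), and a median of -0.11. Akr7a3 read -3.76 to -2.98 on monocrotaline arrays and -7.09 to -3.43 on saline arrays, and was not above background on 1 saline array. Akr1a1 was at -0.45 ± 0.20 (SE).

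The genes of haem breakdown, ferritin and iron transport (14 of 17 tested) had 1 higher, the iron exporter Slc40a1 at 0.94 ± 0.30 (SE), and 1 lower, the haem carrier Hpx at -0.60 ± 0.24 (SE), with a median of 0.06. The list labelled other widely used NRF2 targets (13 of 14 tested) had 2 higher and 2 lower and a median of -0.09. The label is no measure of NRF2 action, and the part of NRF2 in Gdf15 and Fgf21, named below, was not tested. Gdf15, a stress-induced cytokine that p53 and ATF4 also induce, read 3.35, 0.75, 0.80 and 3.73 on monocrotaline arrays and -0.78, -0.13, 0.01 and -0.26 on saline arrays. All monocrotaline values of Gdf15 were above all saline values, with a log2 fold change of 2.45 ± 0.70 (SE; limma, adjusted p = 0.172). Fgf21, which encodes a stress-induced hormone, read -5.32, -5.08, -5.74 and -5.56 on monocrotaline arrays and -4.58, -4.73, -4.40 and -4.12 on saline arrays. All monocrotaline values of Fgf21 were below all saline values, at -0.97 ± 0.19 (SE; limma, adjusted p = 0.0554).

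**Figure D4:**
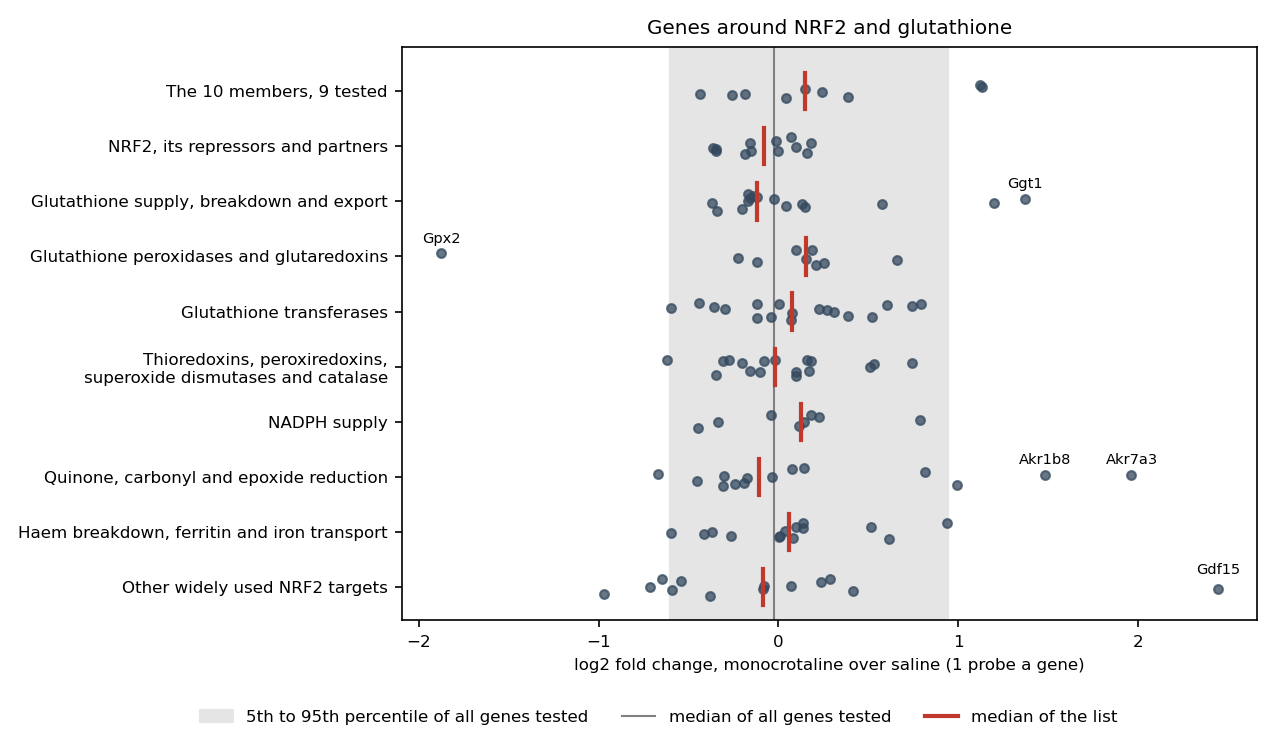
Log2 fold change of monocrotaline over saline for each tested gene (points, 1 probe a gene) of the set and of the 9 surrounding lists, with list medians (red lines) and the 5th to 95th percentile of 11443 genes (grey, -0.601 to 0.942). List medians lie between -0.118 and 0.155, and names mark genes beyond 1.2 log2 units.

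The 3 genes of the set that varied most over the 8 arrays were compared with all other named genes by the root mean square difference between centred log2 signals. Hmox1, with a range of 3.15, was closest to Odad4 (0.207), Star (0.25) and Tgm1 (0.251). Slc7a11, with a range of 2.42, was closest to Ggt1 (0.188), Lag3 (0.334) and Art4 (0.35). Srxn1, with a range of 2, was closest to Tacc3 (0.147), Dck (0.166) and Slfn9 (0.207). The likeness is over 8 arrays that share the treatment split, and was not tested.

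**Figure D5:**
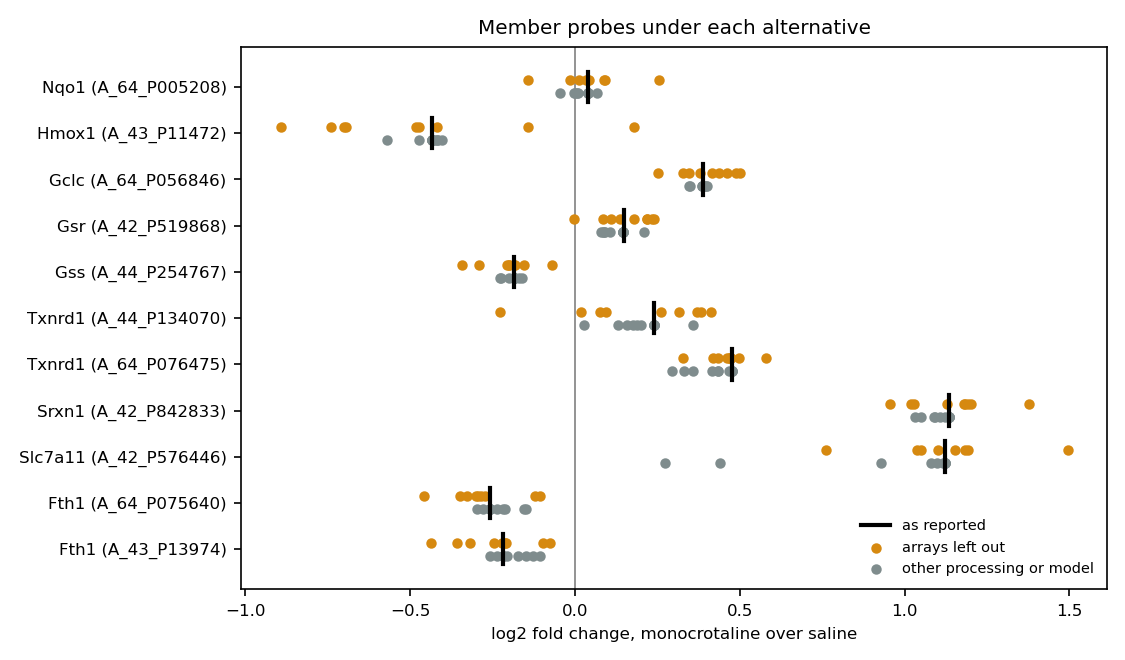
Log2 fold change of monocrotaline over saline for the 11 probes as reported (black lines) and under each alternative, with arrays left out (orange) or with another processing or model (grey). Srxn1 stays between 0.955 and 1.379, and Nqo1, Gsr, Hmox1 and 1 Txnrd1 probe have values on both sides of 0. Slc7a11 falls to 0.272 with normexp, whose offset of 50 by itself narrows differences at low signals.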

How the data were processed

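RNA of 4 monocrotaline and 4 saline rats was measured on 8 one-colour Agilent arrays. Per the file headers, Agilent Feature Extraction 10.7.3.1 produced the spot intensity values (background-corrected processed signal) that the authors deposited, together with flags for outlier spots and for spots well above background. The authors also deposited a table of log2 values made with limma 3.6.9, per the submitters' processing notes. The scale of that table is not stated, but 2 raised to its values matched the quantile-normalized log2 signal over 62976 features (median absolute difference 9.89e-10), so it was used that way, as an alternative.

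Control spots (4259 of 62976) and outlier spots were left out, spots of a probe were averaged, and log2 signal minus the array's 75th percentile was fitted probe by probe with limma 3.58.1 (R 4.3.3), two-sided, with Benjamini-Hochberg adjustment over 21652 probes that were well above background on at least 4 of 8 arrays. 17 probes had no usable spot on some array. The code of the fit was checked on simulated data with independent noise in each probe. That check did not copy differences in cell content or slide position, so it does not bear on them. Symbols came from RefSeq accessions, matched for 18006 of 30367 probes. The array design is of build rn4, and promoter coordinates are of GRCr8. Array number (4 against 4) limits the precision. Lists used 1 probe a gene, the one with the highest mean signal.

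The members and lists were chosen with earlier results of these data known. Beside all members, the text names from each pathway list the 2 genes with the largest moderated t, the brightest gene of some cell marker lists, and the 3 closest genes of the 3 members with the widest range. Nfe2l2, Keap1, Slc3a2, Cd68, Gpnmb, Fabp4, Marco, Sod1 and Ugdh fall outside that rule. Alternatives were other background corrections, scalings, filters, probe summaries and models, and leaving out arrays. Normexp used the median spot signal and an offset of 50.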

Additional observations from a re-analysis of the deposited data

Results flagged for a closer look

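Among 88 groups of 4 values, 6 held a value set apart from its group by Dixon's criterion, and chance gives about 1 in 20. On monocrotaline arrays, the second Slc7a11 probe read -7.149 on replicate 3, against -8.59 to -8.396 on the others, all below background. Bach1 read -3.378 on monocrotaline replicate 4, against -2.943 to -2.877. On saline replicate 2, Abcc5 read 2.121 (others 2.273 to 2.303), Hpx read -4.42 (others -3.904 to -3.861) and Lyz2 read 7.528 (others 6.753 to 6.815). Gpx4 read 4.963 on saline replicate 1, against 5.171 to 5.202.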

How the results depend on the processing

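Among member fold changes under the alternatives, 218 kept their direction and side of the threshold, 8 turned sign and 1 passed the threshold. The sign of Nqo1 turned under quantile normalization (-0.002), median scaling (-0.001), the deposited table (-0.044), without monocrotaline replicate 1 (-0.143) and without saline replicate 2 (-0.014), and with single arrays left out its highest value was 0.256. It turned for Hmox1 without monocrotaline replicate 2 (0.179; lowest with 1 array left out -0.74), for Gsr without monocrotaline replicate 4 (-0.003; highest 0.235), and for Txnrd1 probe A_44_P134070 with monocrotaline replicates 1 and 3 left out (-0.228); the cause was not tested. With single arrays left out, 0 to 1 member probes were called (Srxn1, without saline replicate 2), 0 to 2 pathway genes (Fgf21 and Ggt1, without monocrotaline replicate 2) and 45 to 397 of all probes, against 308. Fgf21 was also the 1 pathway gene called with the filter of all 8 arrays and the 1 called with array quality weights, which called 463 probes. With monocrotaline replicates 1 and 3 left out, 63 were called. Replicate numbers follow slide columns, not animals. Same-numbered arrays correlated at -0.0138, -0.24, -0.332 and -0.194 once each group was centred, against -0.342 to 0.386 for the other pairs. These few values do not measure a column effect and do not set aside the fit with the replicate block, in which 0 probes were called. Signal over background limits Gclm, whose probe had no array above background, and Slc7a11, which was not tested with the filter of all 8 arrays or without monocrotaline replicates 1 and 3.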
